A study of Mus musculus with 12 samples.

Results

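The core shared genes are genes listed with many YTHDF1 peaks after both cocaine and saline. Their ratio between the treatments lay near the middle of the range. They were chosen from the deposited numbers of peaks per gene. Each had a mean above 6 peaks over the 3 cocaine libraries and over the 3 saline libraries, and its cocaine mean divided by its saline mean lay above 2.5 and below 6.5. Genes with names of opposite-strand, Rik or numbered Gm transcripts were left out, as were Syn3, Igf2bp3 and Tsix. This gave 47 genes of the 251 listed in both tables and of the 1247 listed in either. Of the 47, 21 have a symbol and 26 are known here only by an Ensembl identifier. The means and the ratio chose the genes, so both are descriptions with no test, and the choice fixed that cocaine is higher than saline.

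All groups are striatum of mice labelled WT, C57BL/6J, and the treatment is cocaine or saline. The labels give no dose, time or age. They name striatal neurons as the cell type, while the protocol lyses whole frozen tissue. Each treatment has 3 CLIP libraries, made with a monoclonal antibody against YTHDF1 after ultraviolet crosslinking, and 3 input libraries without antibody. The 6 input libraries are not analysed here, and no number of peaks is corrected for RNA abundance. Libraries are called 1 to 3 by column order, without meaning for pairing. Whether libraries come from separate animals is not in the labels, so the spread behind each p-value may be technical.

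YTHDF1 is a cytoplasmic reader protein that recognises N6-methyladenosine (m6A), a methyl mark that writer enzymes place inside RNA. Bound RNAs are known to be translated more, and the protein has been studied in the brain for its part in learning and synaptic plasticity. A CLIP peak is a stretch of RNA where crosslinked reads pile up. A gene with many peaks was therefore assigned many such stretches, whatever the height of each.

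The cocaine libraries held 24770 to 25528 listed peaks and the saline libraries 3720 to 3944, and the reads behind them are unknown. Of 18 medium spiny neuron markers, only Gad1 was listed, with 3 ± 1.73 peaks (SD, n = 3) in saline alone, and no astrocyte marker of 15 was. The oligodendrocyte marker Cnp was listed in both tables (1 of 17). Of 14 microglia markers 3 were listed and of 15 vascular markers 2. None of the listed markers is a core gene. Markers were matched by symbol, so one listed without a symbol would be missed. Genes under the cutoffs of the tables are missing from them, so these markers cannot settle which cells the RNA came from. In bulk tissue, fewer cells of a type and less RNA per cell cannot be told apart.

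Together the core genes held 3308, 3079 and 3122 peaks in the cocaine libraries and 696, 733 and 743 in the saline libraries. The libraries of a treatment lay close together, at means of 3169.7 ± 121.7 and 724 ± 24.8 (SD, n = 3), a ratio of 4.38. All 251 genes in both tables gave 4.23, and the core genes without Fgfr2 gave 4.36. As a share of all listed peaks, the core genes made up 12.6% ± 0.280 in cocaine and 19.0% ± 0.677 in saline. The cocaine table lists more genes, and over the genes in both tables the shares were 22.9% ± 0.801 and 22.1% ± 0.861. Over that denominator the libraries of the treatments overlapped, at 22.4 to 23.8% in cocaine and 21.4 to 23.1% in saline.

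**Figure D1:**
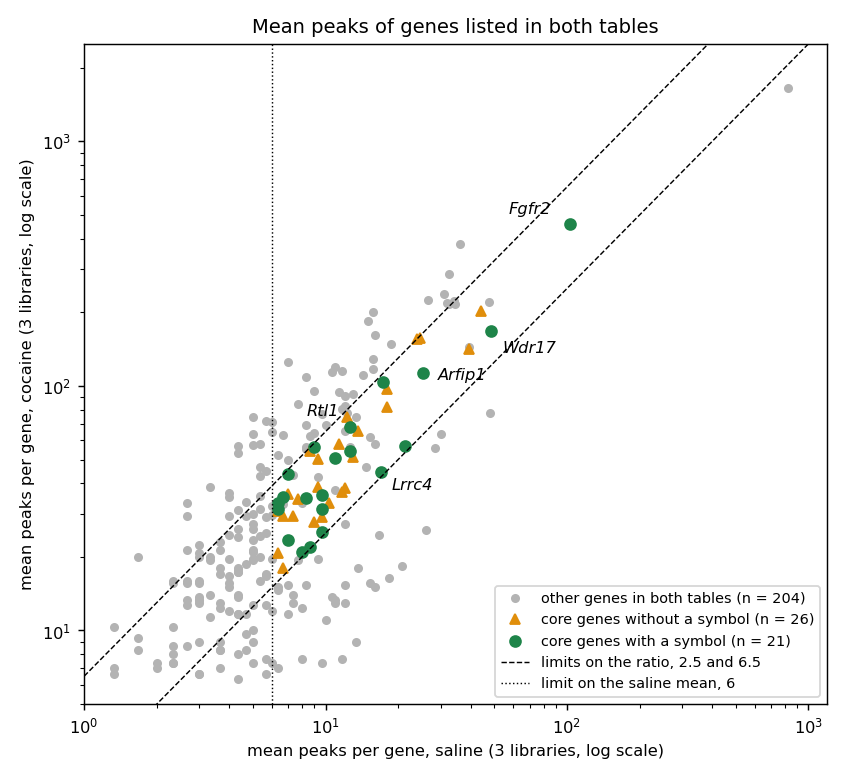
Mean number of YTHDF1 peaks per gene in saline (x axis) and cocaine (y axis), both log scales, for the 251 genes in both tables. The 47 core genes, in green with a symbol and orange without, fill the band between the limits of 2.5 and 6.5, from 18 to 457.7 peaks in cocaine; Fgfr2 is the highest.

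The level varied widely among the core genes, while the rule bounds the ratio. A cocaine mean above 100 peaks was reached by 8 genes, 14 lay between 50 and 100, and 25 at or under 50. Genes with a symbol had a median of 43.7 peaks in cocaine and 9.67 in saline, and genes without a symbol 44.5 and 10.8. The order of the core genes was alike in both treatments, with a Spearman correlation of 0.836 between the 2 means over 47 genes, partly because the rule bounds the ratio.

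Receptors, ligands and secreted proteins made up 4 of the 21 genes with a symbol, a grouping made after the values were seen. Fgfr2, a receptor tyrosine kinase for fibroblast growth factors, is on chromosome 7 from 130162451 to 130266808 (mm10; annotation of GRCm38.p6, as for all positions here). It had 487, 465 and 421 peaks in the cocaine libraries and 106, 96 and 106 in the saline libraries. The groups lay far apart and the libraries within each were close, with a coefficient of variation of 7.34% and 5.62%. No other gene overlaps its span in the annotation. Listed genes without a symbol have no position here, so whether any of them lies in that span is not known. It alone held 13.1 to 15.2% of the peaks of the core genes in each of the 6 libraries.

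Timp3, a secreted inhibitor of matrix metalloproteinases (chromosome 10, 86300412 to 86349505), had 40, 55 and 73 peaks after cocaine and 7, 2 and 18 after saline. The groups did not overlap, but the saline values spread with a coefficient of variation of 90.9%. Ccr9, the receptor of the chemokine CCL25, had 28, 48 and 24 peaks after cocaine and 6, 11 and 2 after saline. Angpt2, a vascular ligand of the receptor Tie2, had 15, 30 and 18 peaks after cocaine and 11, 3 and 10 after saline. Its lowest cocaine library stood only 1.36 times above its highest saline library. Tek, the gene of that receptor, was listed in cocaine alone, with 13 ± 5.29 peaks (SD, n = 3).

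From the wider FGF receptor pathway, 5 of 59 genes were listed by symbol in either table and Fgfr2 was the only core gene. The other 4 were in the cocaine table alone. The ligand Fgf1 had 20 ± 6.93 peaks, the intracellular Fgf14 7.33 ± 4.16, the phospholipase Plcg1, a substrate of these receptors, 23.3 ± 1.15, and Flrt3, a membrane protein that binds FGF receptors, 24.7 ± 5.77. None of the other receptor genes (Fgfr1, Fgfr3, Fgfr4 and Fgfrl1) was listed under its symbol. A gene missing from the saline table may have had peaks below its cutoff, so these genes have no ratio.

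Adhesion and synaptic proteins were 4 genes. Lrrc4, which encodes netrin-G ligand 2, an adhesion protein of excitatory postsynapses, had 44, 45 and 45 peaks after cocaine and 16, 17 and 18 after saline. These were the most even values of any core gene with a symbol. Independent counts of that size would vary by 15.0% and 24.3% between libraries, and Lrrc4 varied by 1.29% and 5.88%. Lrrc4 is singled out here as the most even gene, and a spread over 3 libraries is itself uncertain, so nothing is read from this. Lrtm1, a leucine-rich repeat membrane protein gene, had 41, 61 and 50 peaks after cocaine and 13, 13 and 7 after saline. Insyn2a, the gene of an inhibitory synaptic factor, had 39, 39 and 27 after cocaine and 4, 3 and 13 after saline, where library 3 stood above the others. Cdh23, an atypical cadherin known from the tip links of hair cells, had 41, 16 and 50 after cocaine and 12, 11 and 6 after saline. For all 4 genes every cocaine library was above every saline library, as for 77.7% of all 251 genes in both tables. The rule asked for a ratio above 2.5, so nothing is read from this.

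Intracellular signalling and trafficking proteins were 5 genes. Arfip1 encodes arfaptin-1, which binds ARF family GTPases at the Golgi, and had 121, 123 and 94 peaks after cocaine and 25, 22 and 29 after saline. Its ratio of means, 4.45, was the nearest to that of Fgfr2 (4.46) among the genes with a symbol, followed by Lrtm1 (4.61) and Ggact (4.26). Hipk4, a homeodomain-interacting protein kinase gene, had 60, 33 and 38 peaks after cocaine and 4, 9 and 8 after saline. At 6.24 it had the highest ratio of these 21 genes. Tifa, an adapter of TRAF signalling to NF-kappaB, had 43, 31 and 30 after cocaine and 9, 7 and 9 after saline. Dock2, a Rac activator known from blood cells, had 34, 27 and 33 after cocaine and 2, 10 and 17 after saline. Fbxw8, the substrate receptor of a cullin-7 ubiquitin ligase, had 40, 24 and 30 after cocaine and 3, 7 and 9 after saline. The groups stayed apart for all 5, beside 77.7% of all 251 genes in both tables, and nothing is read from this either. In Dock2 the saline libraries spread from 2 to 17.

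Enzymes were 3 genes. Macrod1, which removes ADP-ribose from proteins, had 130, 100 and 80 peaks after cocaine and 7, 24 and 21 after saline. Ggact, gamma-glutamylamine cyclotransferase, had 54, 26 and 82 after cocaine and 16, 15 and 7 after saline. Abhd15, a regulator of fat breakdown in adipocytes, had 33, 36 and 7 after cocaine and 10, 15 and 4 after saline. Abhd15 was low in library 3 of each table, and its groups overlapped.

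Among the remaining genes, Wdr17, a WD-repeat protein gene on chromosome 8 from 54629281 to 54726979, had 145, 190 and 166 peaks after cocaine and 49, 42 and 55 after saline. Like Fgfr2, it overlaps no other annotated gene. Tcte2, a testis-expressed gene of the t-complex, had 17, 30 and 19 after cocaine and 8, 10 and 8 after saline. Ammecr1, an X-linked gene, had 27, 36 and 7 after cocaine and 7, 2 and 12 after saline. In Ammecr1, as in Abhd15, cocaine library 3 fell within the range of saline.

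**Figure D2:**
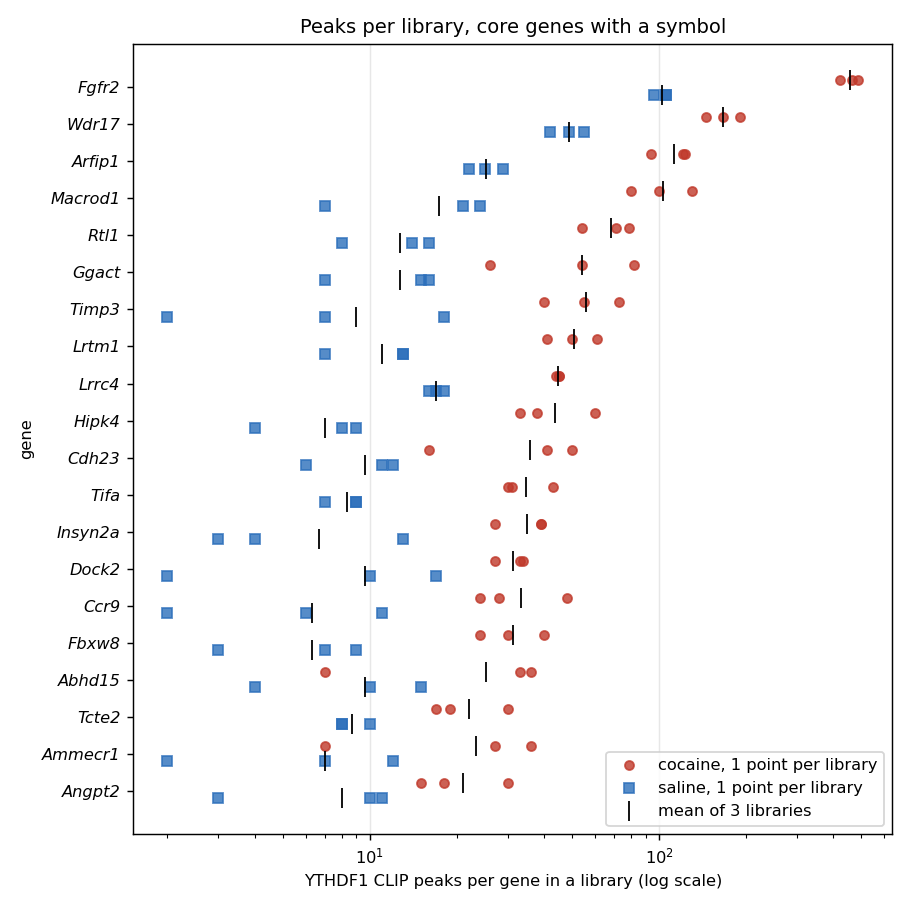
Peaks per gene in each library (x axis, log scale) for 20 core genes with a symbol, ordered by the mean of both treatments; red points are cocaine libraries, blue squares saline libraries and bars the means. The groups stay apart for 18 of the 20 genes and overlap for Abhd15 and Ammecr1. They stay apart for 77.7% of all 251 genes in both tables. The rule asked for a ratio above 2.5, so nothing is read from the count.

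Rtl1, an imprinted gene derived from a retrotransposon and expressed from the paternal chromosome, is on chromosome 12 from 109564900 to 109604418. It had 79, 71 and 54 peaks after cocaine and 8, 14 and 16 after saline, with no overlap between groups. Its span holds 15 miRNA genes of the RefSeq table, and it is the only 1 of the 21 genes whose span holds any. As background, miRNAs made from the maternal chromosome lie opposite the Rtl1 coding sequence and can cleave its mRNA. The tables give neither strand nor position of a peak. Whether the number for Rtl1 includes peaks on RNA of the opposite strand is therefore not known. For that reason 5 of the 29 mature miRNAs in the Rtl1 span are shown, from RefSeq on GRCm38.p6. The miRNAs of the span lie on both strands, and the 5 shown are all on the plus strand. They lie between chr12:109590459-109590479 (miR-431-5p) and chr12:109595331-109595352 (miR-136-5p). Capitals mark the seed, bases 2 to 8, by which a miRNA finds its targets.
mmu-miR-431-5p: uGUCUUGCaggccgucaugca
mmu-miR-433-3p: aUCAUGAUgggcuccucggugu
mmu-miR-127-3p: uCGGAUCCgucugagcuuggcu
mmu-miR-434-3p: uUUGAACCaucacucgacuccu
mmu-miR-136-5p: aCUCCAUUuguuuugaugaugg
The 5 seeds are all different, so no 2 of these miRNAs share a seed family. Neither the lncRNA genes Meg3 and Rian, which overlap the Rtl1 span in part, nor any of the miRNA genes was listed in either table under its symbol.

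The 26 genes without a symbol cannot be named from the tables given here, and their class is unknown. They were 55.3% of the core genes, a share that the rule raised by leaving out genes by symbol only. Before that step they were 26 of 64 genes within the limits (40.6%), and over the 132 genes above 6 peaks in both they were 37.9%. By the mean of both treatments ENSMUSG00000098078 led them, with 203, 196 and 209 peaks after cocaine and 42, 60 and 30 after saline. In cocaine it was second only to Fgfr2, and in saline it stood below Wdr17 too. ENSMUSG00000097723 came next by that mean (90.8 peaks), with 192, 127 and 152 after cocaine and 17, 33 and 24 after saline. It was barely above another gene without a symbol (90.3), which was higher in saline, at 39.3 peaks. The group means of the 26 genes ran from 18 to 202.7 peaks in cocaine and from 6.33 to 44 in saline. Their summed peaks gave a ratio of 4.63, against 4.13 for the genes with a symbol.

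For 43 of the 47 core genes the lowest cocaine library was above the highest saline library. The same held for 77.7% of all 251 genes in both tables and for 80.3% of the 132 genes with a mean above 6 in both. Since the rule asked for a ratio above 2.5, nothing is read from the count. The 4 genes whose groups overlapped or touched were Abhd15, Ammecr1 and 2 genes without a symbol.

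Within single library pairs the ratio ranged more widely than the ratio of means, which the rule bounds. Ratios of low counts in single libraries vary more than ratios of means, so nothing is read from that difference. Each gene has 9 pairs of a cocaine and a saline library. All 9 stayed between 2.5 and 6.5 for 5 genes, which were Fgfr2 (3.97 to 5.07), Wdr17 (2.64 to 4.52), Arfip1 (3.24 to 5.59), Tifa (3.33 to 6.14) and 1 gene without a symbol. Lrrc4 had the narrowest range, 2.44 to 2.81, which crosses the lower limit. The widest ranges among genes with a symbol were those of Timp3 (2.22 to 36.5), Ammecr1 (0.583 to 18) and Abhd15 (0.467 to 9).

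With any 1 library left out, 22 of the 47 genes stayed within the limits in all 6 cases. The 9 of them with a symbol were Fgfr2, Wdr17, Arfip1, Rtl1, Lrtm1, Lrrc4, Tifa, Ggact and Cdh23. The other 25 left the limits in at least 1 case, so their membership rests on single libraries. A saline mean under 10 peaks was found for 24 core genes, and 17 had a saline library under 5.

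**Figure D3:**
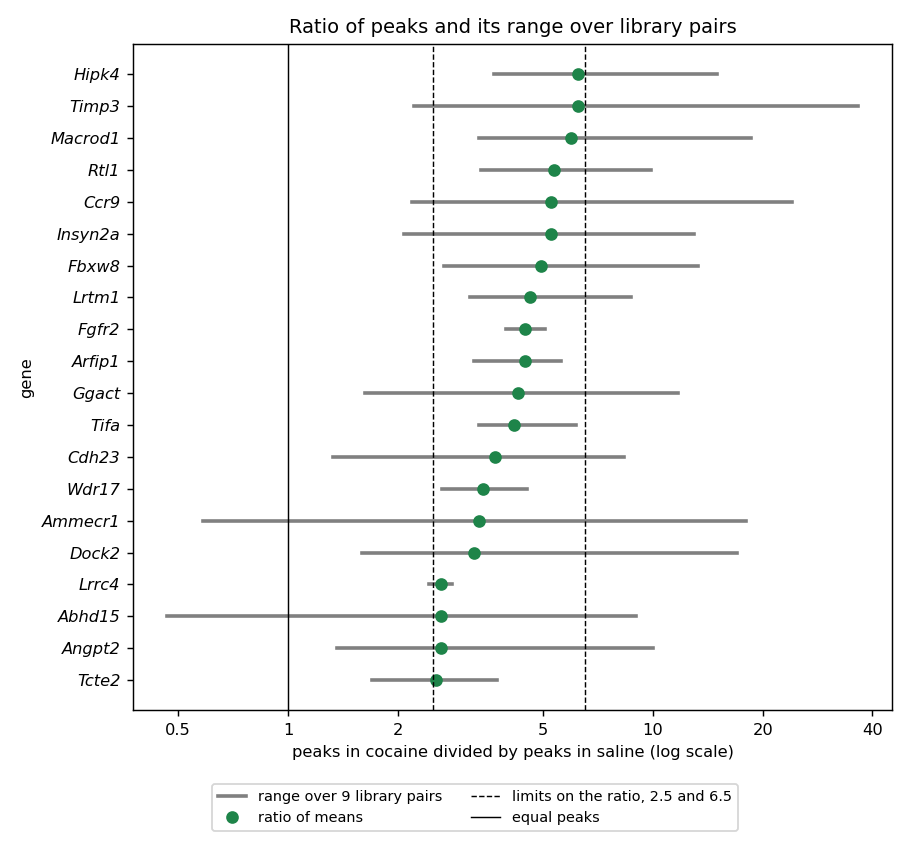
Ratio of peaks in cocaine to peaks in saline (x axis, log scale) for 20 core genes with a symbol; points are ratios of means and bars the range over 9 pairs of libraries. Fgfr2, Wdr17, Arfip1 and Tifa keep the whole bar between the dashed limits, while Abhd15 and Ammecr1 reach below 1.

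The spread between libraries was larger in saline than in cocaine. The median coefficient of variation of a core gene was 22.6% in cocaine and 37.8% in saline, and it was higher in saline for 37 of the 47 genes (175 of 251 over all genes in both tables). Counts vary more where they are low: independent counts with these means would have a median of 15.1% in cocaine and 32.2% in saline. The observed value was above that of independent counts for 35 of the 47 genes in cocaine and 34 in saline. The same held for 83 and 84 of the 132 genes above 6 peaks in both, and for 168 and 127 of all 251 genes in both tables. Over the 132 genes, the observed medians were 18.8% and 33.9%. The lowest mean of the 2 coefficients was that of Lrrc4, followed by Fgfr2 and Wdr17. It was highest for a gene without a symbol, then for Ammecr1 and Timp3.

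The order of the core genes was kept better between cocaine libraries than between saline libraries. Spearman correlations over the 47 genes were 0.717 to 0.860 within cocaine, 0.301 to 0.559 within saline and 0.563 to 0.681 between treatments. These describe genes that were chosen by their means, and saline counts are low.

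The share of peaks that a gene takes was compared with edgeR for genes in both tables. The totals were those of the genes that passed the filter on low counts, scaled by TMM factors. All 47 core genes passed the filter on low counts, and 202 genes were tested in all. At an adjusted p under 0.05, 28.2% of the 202 tested genes were called, 10.4% with a higher share in cocaine and 17.8% with a lower. In other settings the share called was lowest at 13.8% of 240 genes without saline library 1 (10 higher, 23 lower). It was highest at 29.7% of 202 genes without TMM factors. It was 16.7% of 251 genes with DESeq2 and 15.8% of 240 genes without saline library 2 (16 higher, 22 lower). Higher calls fell from 21 to 7, 7 and 6 without cocaine library 1, 2 and 3, where 108, 103 and 105 genes passed the filter, and lower calls from 36 to 17, 20 and 17. Of the core genes, 3 were called lower and 0 higher, and 4 had an unadjusted p under 0.05. The rule chose genes by the same contrast and kept them near the middle, so nothing is read from this count.

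Of the called genes, Lrrc4 had a log2 difference in share, cocaine minus saline, of -0.91 (SE 0.31, edgeR adjusted p = 0.0430), and its raw mean was 2.63 times higher in cocaine. Under 10 other settings its adjusted p ran from 0.0380 to 0.167. Wdr17 had -0.53 (SE 0.19, edgeR adjusted p = 0.0481), with 0.0147 to 0.319. Both calls were lost under 9 of the 10 settings. They were kept without cocaine library 2 and lost without each of the other 5 libraries. Fgfr2 was not called, with a log2 difference of -0.15 (SE 0.13, edgeR adjusted p = 0.442).

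The median log2 difference was -0.16 over the core genes and -0.02 over all tested genes, and 15 core genes were above 0 and 32 below. Without TMM factors all tested genes shifted up by a median of 0.21, which moved the core genes to a median of 0.06, with 25 above 0 and 22 below. The calls over all genes were then 31 higher and 29 lower, against 21 and 36 with TMM factors. How many core genes lie above 0 therefore depends on the scaling.

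All 21 core genes with a symbol were found in the annotation, and all are protein-coding. They lie on 13 chromosomes. Their spans had a median of 51.3 kb, against 91.3 kb over the 126 coding genes in both tables and 17.2 kb over all 21887 coding genes. The shortest was Lrrc4 at 3.62 kb and the longest Dock2 at 557.1 kb. The number of peaks hardly followed length, with a Spearman correlation of 0.172 in cocaine and 0.235 in saline over the 21 genes.

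Per kb of gene, the short genes were therefore the densest. Lrrc4 had 12.3 peaks per kb in cocaine and 4.69 in saline. It was followed in cocaine by Hipk4 (5.51), Abhd15 (4.60), Fgfr2 (4.39), Tifa (3.64) and Lrtm1 (3.28). Fgfr2 is the exception in length, at 104.4 kb. At the other end, Cdh23 had 0.0906 peaks per kb and Dock2 0.0562 in cocaine. Over the 126 coding genes in both tables the median was 0.342 in cocaine, and Lrrc4 was the third densest.

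**Figure D4:**
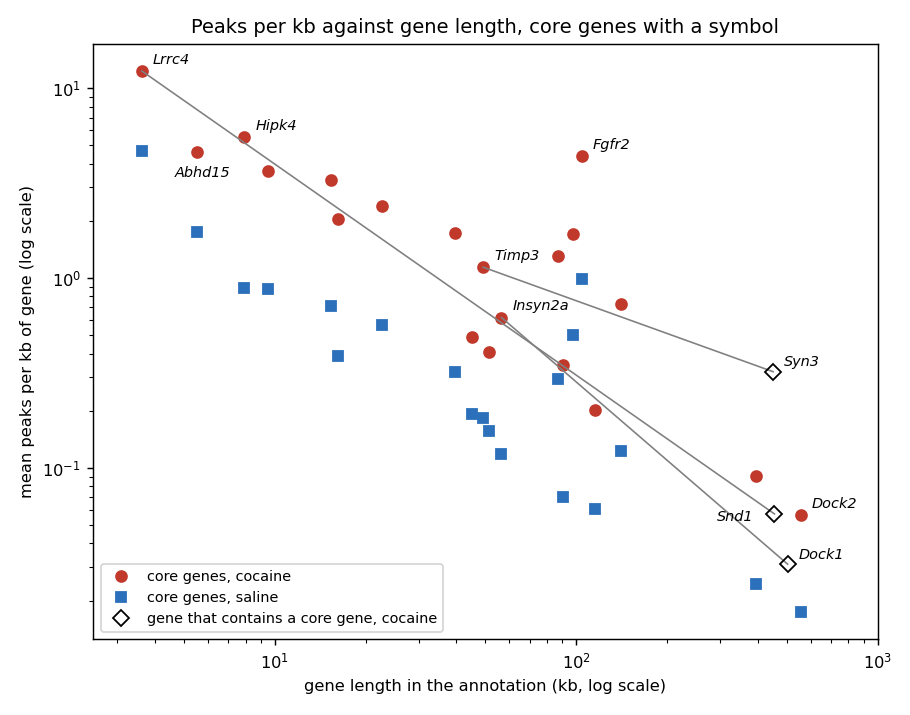
Mean peaks per kb of gene (y axis) against gene length in kb (x axis), both log scales, for 20 core genes with a symbol in cocaine (red) and saline (blue); diamonds, joined by lines, are the longer genes that contain Lrrc4, Timp3 and Insyn2a, in cocaine. Lrrc4 is the densest, at 12.3 peaks per kb in cocaine, and Fgfr2 stands above genes of like length at 4.39.

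Several core genes lie inside a longer gene. Of the 21, 5 lie wholly within another coding gene (23.8%). Of the 57 coding genes above 6 peaks in both, the core genes among them, 7 do (12.3%). The share was 8.73% of the 126 coding genes in both tables and 2.91% of all coding genes. These differences were not tested. The 5 are Lrrc4 in Snd1, Timp3 in the synapsin gene Syn3, Lrtm1 in the calcium channel subunit gene Cacna2d3, Insyn2a in Dock1 and Angpt2 in Mcph1. Overlap of any kind with another coding gene was found for 10 of the 21 (47.6%), close to the 44.4% of the coding genes in both tables. For the coding genes above 6 peaks in both it was 36.8%.

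Of the containing genes, 3 were listed in both tables, and Snd1 and Dock1 had fewer peaks than the core gene inside them. Snd1, at 454.8 kb, had 17, 27 and 34 peaks after cocaine and 1, 7 and 5 after saline, so Lrrc4 had 1.72 times as many in cocaine and 3.92 times as many in saline. Dock1, at 503.0 kb, had 20, 11 and 16 after cocaine and 3, 3 and 1 after saline, and Insyn2a had 2.23 and 2.86 times as many. Syn3, at 450.2 kb, ran the other way, with 155, 147 and 131 after cocaine and 51, 27 and 40 after saline, and Timp3 had 0.388 and 0.229 times as many. Per kb all 3 core genes were denser than the gene around them. Cacna2d3 and Mcph1 were in neither table under their symbols. How peaks in shared sequence were given to a gene is not stated, so the peaks of a core gene and of the gene around it cannot be told apart.

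Of the fixed gene lists, matched by symbol, only the FGF receptor pathway held a core gene, Fgfr2. The lists were chosen with earlier results of these data known, so nothing is read from this difference. None of 22 m6A writers, erasers and readers, 49 striatal and dopamine signalling genes or 63 synaptic vesicle and postsynaptic genes was a core gene. The last list does not hold Lrrc4 and Insyn2a, so it does not cover every synaptic gene. Others of these lists were in both tables with few peaks, such as Gnal, a striatal G protein subunit gene (8 ± 3.61 in cocaine, 2.33 ± 0.577 in saline), or were left out by the rule, as Syn3 was.

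At the lower limit of the ratio, Tcte2 (2.54) and Abhd15 (2.62) lay just inside, and a gene without a symbol (2.37) and Sipa1l1 (2.32) just outside. Near the upper limit, 2 genes without a symbol (6.49 and 6.36) lay inside, and Kcnq1 (6.54) and a gene without a symbol (6.76) outside. On the saline mean, Ccr9 and Fbxw8 (6.33 peaks each) were just inside, and a gene without a symbol (6) and Mtx1 (5.67) just outside. Of the 132 genes above 6 peaks in both, 32 had a ratio at or under 2.5, 36 a ratio at or over 6.5, and 17 had a ratio within the limits but were left out by symbol.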

How the data were processed

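Each library column holds peak counts per gene, whole numbers as deposited, in a table of 3 cocaine libraries and another of 3 saline libraries, per the file headers. The authors' mean of the columns served only as a check. Cutadapt, STAR and mm10 are named in the submitters' processing notes, and CLIPper in the names of the tables; versions, thresholds, the treatment of duplicates and how peaks were assigned to genes are details not given in the sources used here. A table's treatment was read from the letter c or s in its name, which also begins the labelled library names.

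Each Ensembl identifier was counted once. The 21 symbols among the core genes matched the RefSeq annotation of GRCm38.p6, which gave position, length and class. The test was edgeR's quasi-likelihood test (version 4.0.16, R 4.3.3) on the counts of the 251 shared genes, with filterByExpr, TMM factors and Benjamini-Hochberg adjustment at 0.05; the script was tested on simulated data. Alternatives were totals without TMM factors, DESeq2 size factors, DESeq2 1.42.0, no filter, other limits of the rule, and each library left out. Python 3.11.15, pandas 2.3.3 and SciPy 1.17.1 were also used.

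The members, gene lists and tests were chosen with earlier results of these data known. Of the 21 genes with a symbol, 20 are named and 1 is not reported here; of the others the 2 with the highest mean of both treatments. Peaks of a gene are not independent, and spreads expected of counts cover counting error only.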

Additional observations from a re-analysis of the deposited data

How the results depend on the processing

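No paired analysis was possible because the columns of the tables carry no replicate number. The number of core genes was 47, and 40 to 48 with 1 library left out, of which 33 to 44 were among the 47. With medians in place of means there were 37, of which 32 were among the 47. Other limits gave 34 to 65. The ratio of summed peaks, 4.38, ran from 4.28 to 4.44 with 1 library left out. The share of listed peaks, 12.6% in cocaine and 19.0% in saline, became 22.9% and 22.1% over the peaks of genes in both tables. The count of core genes called was 3 with edgeR. It was 0 without TMM factors, 0 with DESeq2 size factors in edgeR and 0 without the filter, where 4, 3 and 4 had an unadjusted p under 0.05, and 0 with DESeq2, where 2 did. With 1 library left out it ran from 0 to 3. Without a cocaine library, only 31 of the 47 core genes passed the filter. Neither Lrrc4 nor Wdr17 changed sign under these alternatives. Depth is known only as peaks, and saline counts under 10 limit what a ratio can show.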

Other observations

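The related genes Insyn2a and Insyn2b, which encode inhibitory synaptic factors, each lie inside a gene of the Dock family of guanine nucleotide exchange factors, and the tables list all 4. In the first pair the inner gene is the core gene: Insyn2a had 35 ± 6.93 peaks (SD, n = 3) in the cocaine libraries and 6.67 ± 5.51 in the saline libraries, and Dock1 around it 15.7 ± 4.51 and 2.33 ± 1.15. In the second pair the outer gene is the core gene: Dock2 had 31.3 ± 3.79 and 9.67 ± 7.51, and Insyn2b inside it 14 ± 5.29 in cocaine, with no entry in the saline table.

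Flrt1, a gene of the same family as Flrt3, lies within Macrod1 and was in neither table under its symbol.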
